A study of Mus musculus with 25 samples.

Results

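Livers of 2-month-old mice labelled Mcl-1 hemizygous (animals 27, 28 and 30; n = 3) were compared with livers of 2-month-old wild-type mice (animals 31 and 34; n = 2), which made up 5 of the 25 arrays of the series. Members were chosen by the genotype and age in the labels alone, and the comparison asks what the liver transcriptome looks like when 1 allele of Mcl-1 is missing. Per the series' design text, the knockout allele of the study is deleted in hepatocytes only, and knockout, hemizygous and wild-type mice were littermates. The labels write the genotype as mcl fplus for hemizygous, mcl ff for knockout and wt for wild-type mice, and do not spell these out. They name no promoter or recombinase and do not say in which cells of hemizygous mice the allele is missing. All 5 mice were untreated, and total RNA came from homogenates of the full liver. The knockout mice of 2 months (animals 64, 69 and 137, n = 3) serve below as a reference for Mcl1 and other transcripts. A further 10 non-tumor arrays entered the statistical model to estimate the spread. They came from wild-type mice of 12 months (n = 3) and knockout mice of 8 (n = 3) and 12 months (n = 4). These older mice also serve below to follow single transcripts and to supply lists of genes.

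Mcl-1 is a pro-survival protein of the BCL-2 family that holds BAX and BAK and their BH3-only activators in check at the outer mitochondrial membrane, where pore formation releases cytochrome c and starts the caspase cascade. It is short-lived, and its amount follows transcription, translation and proteasomal turnover closely. In liver, Mcl-1 and Bcl-xL (gene Bcl2l1) are the main guards of hepatocyte survival, and loss of Mcl-1 from hepatocytes is known for spontaneous apoptosis, matrix deposition and tumors. Animals with a single allele are the usual test of how far the remaining copy suffices.

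Each array gave 1 intensity per probe. The level of a transcript is written below as log2 of the processed signal minus the 75th percentile of the same array, so a level of 0 is that of a moderately bright probe, and levels of different probes are not compared. Wild-type arrays 31 and 34 had 60.3% and 63.1% of 41174 probes well above background, and hemizygous arrays 27, 28 and 30 had 67.2%, 67.1% and 73.1%. Wild-type 31, wild-type 34 and hemizygous 30 lay on slide 1, hemizygous 27 and 28 lay on slide 2 with knockout 137, and all were scanned on the same day. Xist, the RNA of the inactive X chromosome, stood at -1.14 in wild-type 31 and at -0.64, -1.19 and -1.35 in the hemizygous mice. In wild-type 34 Xist was not well above background (-6.13), and the Y-linked Ddx3y stood there at 1.71, against -6.66 in wild-type 31 and -6.40 or less in the hemizygous mice. Ddx3y was well above background in no other of the 5 mice. By these transcripts wild-type 34 reads as male and the rest as female, so the groups are not matched by sex, which the labels do not give. Values with slide as a block (hemizygous 30 against both wild types of its slide) or without 1 animal are given beside the results they move most. The livers carried hepatocyte transcripts at high levels throughout, with albumin (Alb) between 9.48 and 10.20 on the 5 arrays.

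Mcl1 transcript was lower in every hemizygous liver than in either wild-type liver. The brighter of its probes (A_51_P238786, gene on chromosome 3, 95656944 to 95663179, GRCm38.p6) read 4.02 and 4.49 in wild-type 31 and 34, and 3.23, 3.20 and 3.58 in hemizygous 27, 28 and 30. The groups did not overlap. The means were 4.26 ± 0.33 (SD, n = 2) and 3.34 ± 0.21 (SD, n = 3), a difference of -0.92 on the log2 scale (SE 0.37, 95% interval -1.71 to -0.13), so that hemizygous liver held 52.9% of the wild-type level. The limma p adjusted over all 25317 genes tested was 0.9999, as it was for each gene named below, and the unadjusted p was 0.0253. An exact two-sided permutation test of the 5 arrays gave p = 0.1, the smallest p that 3 against 2 arrays allow.

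The second Mcl1 probe (A_52_P93933) gave a like ratio with less spread within the groups. It read 2.15 and 2.16 in wild-type 31 and 34, and 1.31, 1.18 and 1.28 in hemizygous 27, 28 and 30. The difference was -0.90 (SE 0.49, 95% interval -1.96 to 0.16), or 53.7% of the wild-type level. In knockout liver of the same age the probes stood lower again, at 1.82 ± 0.29 and -1.02 ± 0.25 (SD, n = 3), and no knockout array overlapped a hemizygous one on either probe. Hemizygous 30, the only hemizygous array on the slide of the wild types, differed from their mean by -0.68 on the first probe and by -0.87 on the second. The deposited labels do not say which part of the gene was removed, so whether each probe lies inside it was not tested.

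**Figure D1:**
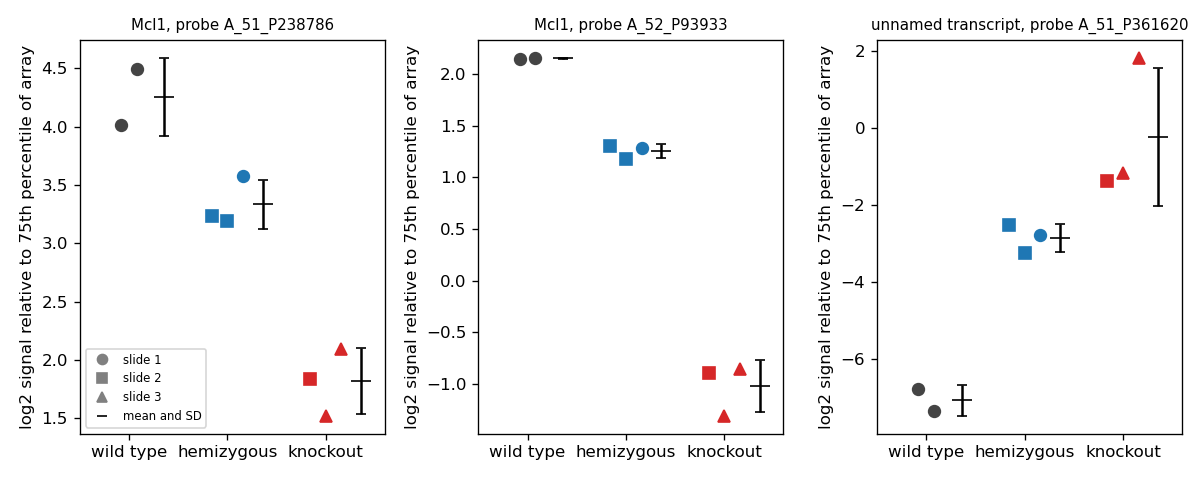
Levels (log2 signal relative to the 75th percentile of the array) of both Mcl1 probes and of the unnamed transcript of probe A_51_P361620 in each 2-month liver; points are animals, their shape is the slide, and bars are the mean and SD. The hemizygous mice lie between wild type and knockout in all 3 panels, and for the unnamed transcript both wild-type points are not well above background.

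The genes beside Mcl1 were measured to see whether the lower signal extended along the chromosome. On the lower-coordinate side the differences were -0.03 for Ensa, a regulator of the phosphatase PP2A, -0.54 for Golph3l, 0.57 for Hormad1, -0.05 for Ctss and 1.32 for Ctsk, the last encoding cathepsins S and K. On the other side they were 0.83 for Adamtsl4, 0.34 for Ecm1, -0.11 for Tars2, -0.22 for Rprd2 and -0.28 for Prpf3. Ctsk read -4.60 and -4.73 in wild type and -3.40, -3.49 and -3.15 in hemizygous liver, without overlap, with an SE of 0.79. Of 57 genes tested within 1 Mb of Mcl1, 33 were below 0 with a median of -0.05, and 1 had an unadjusted limma p under 0.05. Over all genes tested 54.7% were below 0 and the median was -0.04, so the neighbourhood as a whole lay close to the rest of the genome.

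Among the other pro-survival members of the BCL-2 family no transcript passed the test, and the differences were small beside their intervals. Bcl2l1, which encodes Bcl-xL, read 1.25 and 0.98 in wild type and 0.94, 1.41 and 1.44 in hemizygous liver, a difference of 0.15 (95% interval -0.66 to 0.96). Bcl2l2, which encodes Bcl-w, read 1.16 and 1.22 against 1.23, 1.09 and 0.88, a difference of -0.12 (-0.63 to 0.39). For both genes the groups overlapped, and the interval of Bcl2l2 excludes a difference of 1 log2 unit either way. Bcl2 differed by 0.26 (-0.82 to 1.34) and Bcl2a1b, a family member of leukocytes whose near-identical copies may share its probe, by 0.36 (-1.40 to 2.12).

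The pore-forming effectors were close to equal in both groups. Bax read 0.39 and 0.08 in wild type and 0.30, 0.00 and 0.44 in hemizygous liver (difference 0.02, -0.56 to 0.60), and Bak1 differed by 0.13 (-0.70 to 0.97). Of 11 BH3-only and related genes tested, 8 were above 0, none had an unadjusted p under 0.05, and the median was 0.11 against -0.04 over all genes. Bim (Bcl2l11) differed by 0.11 (-1.03 to 1.26), Puma (Bbc3) by 0.13 (-1.05 to 1.30), Noxa (Pmaip1, a selective ligand of Mcl-1) by 0.18 (-1.25 to 1.61) and Bid by 0.04 (-0.74 to 0.83). Bmf showed the widest gap of the family apart from Mcl1. It read 0.44 and 0.94 in wild type and 1.16, 1.29 and 2.06 in hemizygous liver, without overlap, a difference of 0.81 with an SE of 0.90.

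**Figure D2:**
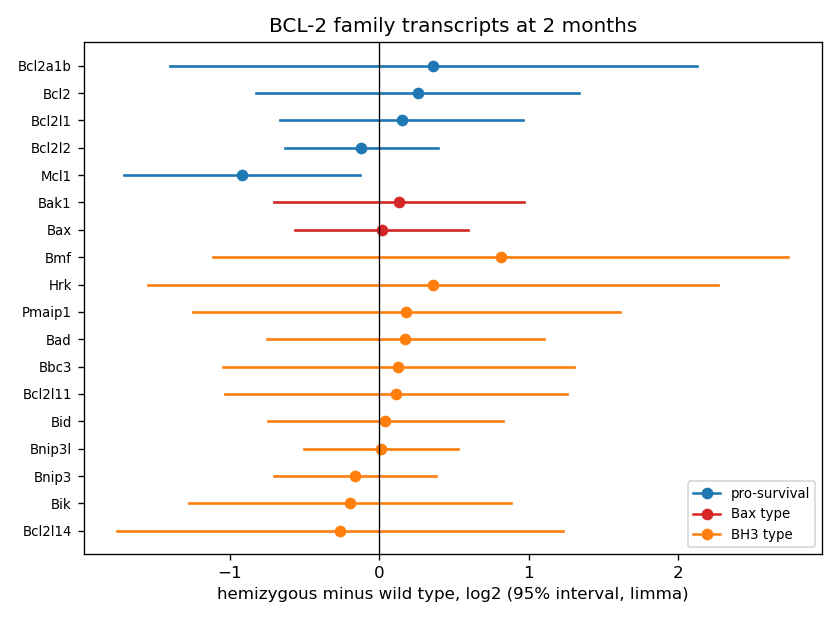
Difference hemizygous minus wild type (log2, point) with its 95% limma interval (line) for each BCL-2 family gene tested, grouped by role. Only the interval of Mcl1 (-1.71 to -0.13) leaves out 0; all others cross it.

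Genes that set the amount of Mcl-1 or act downstream of it gave a like picture. Of 11 genes of Mcl-1 turnover tested, such as the ubiquitin ligases Huwe1 and Fbxw7, the deubiquitinase Usp9x and the kinase Gsk3b, 8 were above 0 and none passed. The median was 0.07, but -0.08 with slide as a block and -0.095 without wild-type 31, each with 5 of 11 above 0. Huwe1 differed by -0.11 (95% interval -0.66 to 0.44) and Fbxw7 by 0.07 (-0.58 to 0.72). Over the 11 genes the differences ran from -0.36 to 0.97. Of 9 regulators of Mcl1 transcription 6 were above 0 (median 0.11, highest 0.38). Il6st, the shared signal transducer of interleukin-6 type cytokines, differed by 0.30 (-0.24 to 0.84). Of 18 caspases and apoptosome genes 12 were above 0 (median 0.07). Cytochrome c (Cycs) read 5.58 and 5.56 in wild type and 4.86, 4.95 and 5.43 in hemizygous liver, without overlap, a difference of -0.49 (SE 0.31), and Apaf1, the scaffold of the apoptosome, differed by 0.49 (SE 0.50). Within slide 1 the values of Cycs and Apaf1 were -0.14 and 0.33.

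Across the transcriptome no gene passed an adjusted p of 0.05 in the limma model of 18 non-tumor arrays (0 of 25317, that is 0%). At an unadjusted p under 0.05 there were 325 genes (1.28%), of which 100 were higher (0.395%) and 225 lower (0.889%) in hemizygous liver. These are fewer genes than the threshold of 0.05 lets through when nothing differs, so they mark no excess. In a fit of only the 5 arrays the share was 4.34%. The median SE of a difference was 0.53 log2 units and the median half-width of its 95% interval 1.13. The difference was past 1 log2 unit either way in 1997 genes (7.89%), and the 3 hemizygous arrays lay all above both wild types in 2169 genes (8.57%) and all below in 2355 (9.3%). Of all genes, 7898 (31.2%) had an interval that stayed within 1 log2 unit of 0, and for the others these arrays do not bound the difference below 2-fold. With slide as a block 14 genes (0.0553%) passed as higher and 19 (0.075%) as lower. That model sets hemizygous 30 alone against the wild types of its slide, and the leading values were single readings of that array: Cep295 stood at 5.55 there and at -3.54 to -3.03 on the other 4.

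The distance between arrays was measured as well. Over 17851 genes well above background on all 5 arrays, the SD of the log2 difference was 0.644 between the wild-type livers, 0.494 to 0.659 among the hemizygous livers and 0.485 to 0.667 between the groups. The smallest of the 10 values, 0.485, belonged to a pair of different genotype, wild-type 31 and hemizygous 30, which share the slide and the Xist signal. The next, 0.494, belonged to hemizygous 27 and 28 on slide 2. All 4 pairs with wild-type 34 were at 0.635 or more, and pairs between groups were no farther apart than pairs within them.

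**Figure D3:**
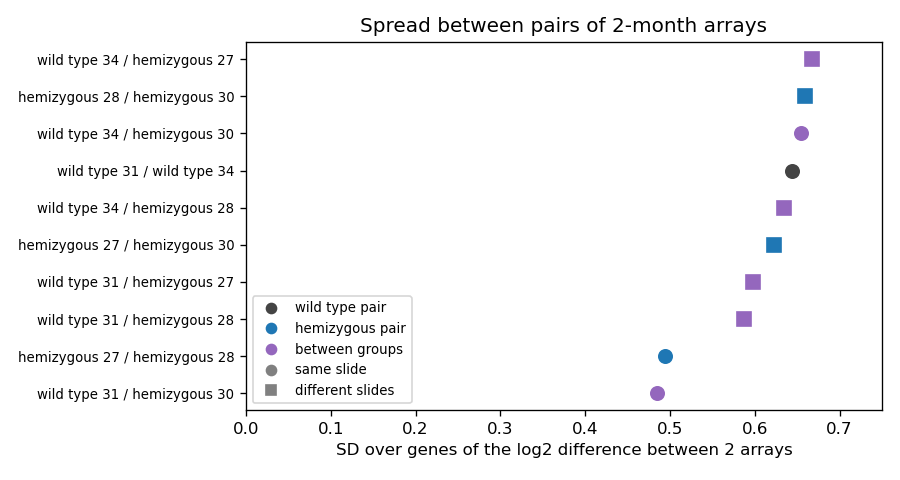
SD over 17851 genes of the log2 difference for each of the 10 pairs of 2-month wild-type and hemizygous arrays, by kind of pair (colour) and slide (shape). Pairs between groups (0.485 to 0.667) cover the same range as pairs within a group (0.494 to 0.659).

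A transcript without a symbol in the RefSeq table had the smallest p among those higher in hemizygous liver. Probe A_51_P361620, printed with the accession BC019122 in the array files, read -6.78 and -7.35 in wild type, not well above background on either array, and -2.53, -3.24 and -2.78 in hemizygous 27, 28 and 30, well above background on all. The hemizygous level was at least 6.11-fold higher. This and later bounds set the brighter group against the lowest signal well above background on each dim array. They hold for the processed signal as scaled here and take no account of the spread between animals. The fitted difference was 4.22 (SE 0.95, 95% interval 2.18 to 6.25), and hemizygous 30 against the wild types of its own slide gave 4.28. In knockout liver of 2 months it read -1.38, -1.18 and 1.81. It was well above background on all 10 non-tumor knockout arrays of the 3 ages, and on 1 of 3 wild-type arrays of 12 months (-4.50, against -7.88 and -6.64). That array, of animal 641, had 84.9% of all probes well above background, against 60.8% for animal 552 and 61.0% for animal 1110.

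The opposite pattern also occurred in transcripts without a symbol. Probe A_51_P125965 (accession AK008770) read -3.32 and -3.83 in wild type and -7.73, -7.89 and -7.71 in hemizygous liver, where it was not well above background. Its wild-type level was at least 5.17-fold higher, and its fitted difference of -4.20 (SE 0.82, 95% interval -5.96 to -2.44) was of similar size. In 12-month wild-type liver this probe was well above background on 1 of 3 arrays only, with a median of -7.59, so it did not follow the wild-type genotype across ages. In all, 876 of 41174 probes (2.13%) were well above background on all 3 hemizygous and neither wild-type array, and 18 (0.0437%) on both wild-type and no hemizygous array. The larger number goes with the lower overall share of probes above background in wild type given above, and their median difference was 0.76, with 12 of them past 2 log2 units. Of the 876 probes, 230 (0.559% of all probes) were also well above background on all 10 non-tumor knockout arrays, as A_51_P361620 was. Of the 18 probes, 5 (0.0121% of all probes) were well above background on no non-tumor knockout array.

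The older mice, which share no array with this comparison, supplied a list of genes to follow. At 12 months 5 of 26871 genes (0.0186%) passed the test between non-tumor knockout and wild-type liver. The unnamed transcript of probe A_51_P361620 was 1 of them and was higher at both ages. B3galnt1, a glycosyltransferase that was higher in the older knockout, differed by 0.45 in hemizygous liver (SE 0.57). Dmrta1, a DM-domain factor that was lower in the older knockout, stood the other way here. It read -6.95 and -7.00 in wild type, below the background criterion on both arrays, and -5.72, -5.13 and -5.16 in hemizygous liver, above it on 2 of 3, while in 12-month wild type it read -3.58 to -2.08. Lpin2 differed by 0.07 and the transcript of probe A_52_P487040 by 0.09. Of the 49 tested among the 50 genes with the smallest p that were higher in older knockout liver, 29 were above 0 in hemizygous liver (median 0.07, but -0.05 without hemizygous 27 and 0.14 without hemizygous 28). Of the 47 tested among the 50 that were lower there, 38 were above 0 as well (median 0.18, but 0.06 with slide as a block), and 45.3% of all genes were.

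The genes with a symbol and the smallest p that were higher in hemizygous liver were mostly dim. Adcy3, an adenylyl cyclase, read -6.60 and -6.61 in wild type and -4.49, -4.01 and -5.30 in hemizygous liver, at least 1.82-fold higher. Il1a, which encodes interleukin-1 alpha, read -6.79 and -4.99 against -3.21, -3.76 and -4.47, at least 2.51-fold higher. Galnt18 and Tppp3 were at least 1.97-fold and 2.05-fold higher, Obi1 at least 1.95-fold and Mxra7, a matrix remodelling gene, at least 1.77-fold. Gdf6, a growth factor of the BMP class, was at least 1.16-fold and Rap2b, a small GTPase, at least 1.18-fold higher. Those 8 genes were well above background on neither wild-type array, and in each the knockout mean lay higher again than the hemizygous mean, for example -3.63 ± 0.17 for Adcy3 and -4.08 ± 0.25 for Gdf6 (SD, n = 3), against hemizygous means of -4.60 and -5.24. With normexp background correction and quantile normalisation, which compress dim signals, the differences of the 8 genes were 0.11 to 0.31. Wild-type arrays also had fewer probes above background, and the part of this in the values was not tested.

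The other 2 of the 10 were measured in both groups. Pln, which encodes phospholamban, the brake of the SERCA calcium pump, read -3.64 and -5.18 in wild type and -1.65, -2.11 and -2.30 in hemizygous liver, a difference of 2.39 (SE 0.80), with 1 of 2 wild-type arrays above background. Cyth3, an exchange factor of ARF GTPases, read -2.21 and -2.45 against -1.38, -1.19 and -1.77, a difference of 0.88 (SE 0.30). On slide 1 alone the difference for Cyth3 was 0.56. In these 2 genes the knockout mean was not above the hemizygous mean, unlike in the dim genes. Pln stood at -3.88 ± 1.62 in knockout liver (SD, n = 3), against a hemizygous mean of -2.02. Cyth3 stood there at -1.52 ± 0.07, against -1.45.

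Among genes lower in hemizygous liver, 2 were bright on all 5 arrays. Gadd45gip1, a protein of the mitochondrial ribosome, read 4.61 and 4.26 in wild type and 3.62, 2.93 and 3.11 in hemizygous liver, a difference of -1.22 (SE 0.33). Its sign turned, to 0.16, when all probes of the gene were averaged. Dhps, the deoxyhypusine synthase that activates eIF5A, read 1.88 and 1.74 against 1.15, 0.36 and 0.73, a difference of -1.06 (SE 0.34), and -1.08 on slide 1 alone. In knockout liver Gadd45gip1 stood near wild type, at 4.21 ± 0.10, and Dhps near the hemizygous level, at 0.91 ± 0.15 (SD, n = 3).

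Of the remaining lower genes, Cacng7 and Capn3 were well above background on both wild-type and all 3 hemizygous arrays. The others were dim or rested on few arrays. Cacng7, a subunit related to calcium channels, read -1.19 and -0.79 in wild type and -3.07, -2.64 and -3.89 in hemizygous liver, a difference of -2.21 (SE 0.55) that was -2.90 on slide 1. Capn3, a calpain protease, differed by -1.001 (SE 0.33), and Clgn, a chaperone, by -1.58 (SE 0.52). Olfr891, Gzmk (granzyme K) and Got1l1 were well above background on both wild-type and no hemizygous array, at least 5.11-fold, 2.81-fold and 2.77-fold higher in wild type, and Sgip1 on 1 of 3 hemizygous arrays. With normexp background correction and quantile normalisation the log2 differences of Olfr891, Gzmk and Got1l1 were only -0.54, -0.18 and -0.28. Ap3s2 read 1.05 in wild-type 31 but -2.59 in wild-type 34 and -3.09, -3.20 and -3.09 in hemizygous liver, so its difference of -2.36 rested on 1 animal.

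Markers of the endothelium and of stellate cells with the matrix they lay down lay above 0 almost as a block, without any member passing the test. In bulk liver more cells of a type and more RNA per cell cannot be told apart. Of 28 endothelial genes tested 27 were above 0 and 17 did not overlap between groups, against 45.3% and 8.57% of all genes; the median was 0.35. Pecam1, the adhesion molecule CD31, read -2.89 and -3.03 in wild type and -2.10, -1.80 and -2.61 in hemizygous liver (difference 0.79, SE 0.40). Tek, the angiopoietin receptor, read -2.36 and -2.62 against -1.37, -1.43 and -2.15 (0.84, SE 0.45). Bmp2, a ligand of liver endothelium that controls iron sensing, read -2.24 and -2.18 against -1.07, -0.996 and -1.82 (0.92, SE 0.48). All 3 were well above background on all 5 arrays and highest on slide 2. Hemizygous 30 against the wild types of its slide gave smaller differences for them, 0.35 for Pecam1, 0.34 for Tek and 0.39 for Bmp2. The list median was 0.32 with slide as a block and 0.31 for hemizygous 30 minus wild-type 31 alone, where 24 of 28 genes were above 0. Over all genes tested these medians were 0.07 and 0.09, with 15203 of 25317 above 0 for that pair of arrays.

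The mean level of the 28 endothelial genes was -0.12 and -0.11 in wild type and 0.38, 0.27 and 0.14 in hemizygous 27, 28 and 30, without overlap. Knockout livers of 2 months did not form 1 group on this measure, at 0.43, -0.55 and 0.17 for animals 137, 64 and 69. Over every alternative tried the endothelial median lay between 0.25 and 0.41.

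Of 29 stellate and matrix genes 28 were above 0, 17 lay higher without overlap (8.57% of all genes) and the median was 0.50. Desmin (Des), a marker of stellate cells, read -3.46 and -4.07 in wild type and -2.93, -2.56 and -3.34 in hemizygous liver (0.82, SE 0.46), and Hgf, the hepatocyte growth factor that stellate cells secrete, read -3.94 and -3.97 against -2.76, -3.14 and -3.68 (0.76, SE 0.43). Loxl2, a collagen cross-linking enzyme, differed by 0.66 (SE 0.40) and Col6a1, a collagen chain, by 1.03 (SE 0.67). Timp1, an inhibitor of metalloproteinases, was the 1 member below 0 (-0.68, SE 0.46). The mean level of the list was 0.16 and 0.01 in wild type, 0.78, 0.75 and 0.26 in hemizygous 27, 28 and 30, and 1.21, 1.33 and 1.39 in the knockout livers, so that the 3 genotypes did not overlap. The knockout arrays lay on slides 2 and 3, without a 2-month wild-type array, so slide and genotype cannot be told apart there. For hemizygous 30 minus wild-type 31 the list median was 0.12, against 0.09 over all genes tested. Over all genes the mean level was -1.38 in hemizygous 30 and -1.49 in wild-type 31. Hemizygous 30 was the closest to wild type. Against the wild types of its slide it differed by 0.42 for Des, 0.28 for Hgf, 0.50 for Loxl2 and 0.03 for Col6a1, and the median with slide as a block was 0.21, less than the 0.50 over all arrays.

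**Figure D4:**
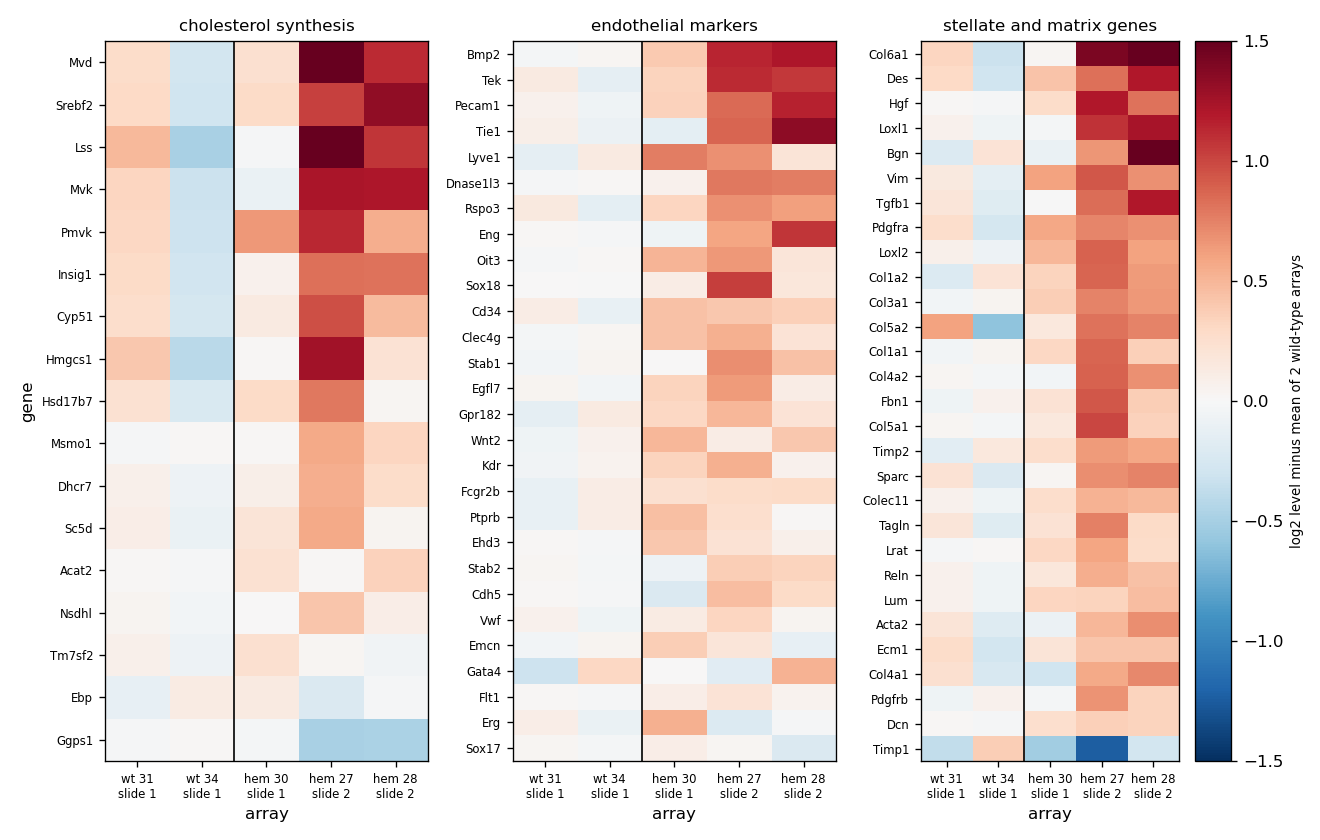
Level on the 5 arrays of the endothelial genes, the stellate and matrix genes and the 17 cholesterol genes with a promoter entry, as log2 difference from the mean of the wild-type arrays (colour, capped at 1.5 log2 units either way), with genes ordered by their difference and arrays by slide. Hemizygous 27 and 28 on slide 2 carry most of the red in the cholesterol and stellate lists, and hemizygous 30 is nearer to the wild types of slide 1.

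Hepatocyte markers lay slightly below 0. Of 26 genes 22 were below 0, with a median of -0.18, and 19 of the 26 intervals stayed within 1 log2 unit of 0, which bounds each of those differences at less than 2-fold. Ambp, a plasma protein precursor, read 9.07 and 9.58 in wild type and 8.92, 9.01 and 9.01 in hemizygous liver (-0.34, SE 0.24), and Alb differed by -0.29 (95% interval -0.98 to 0.39). With the series matrix values the median of the list was 0.01, so its sign depended on the scaling. Leukocyte lists showed no common shift. Of 27 macrophage genes 21 were above 0 (median 0.14, but -0.12 with slide as a block). Of 19 T and NK cell genes 15 were below 0, with a median of -0.16. That median was -0.35 with slide as a block, -0.33 with Xist as a covariate and -0.49 without wild-type 34. It was -0.67 for hemizygous 30 minus wild-type 31, but 0.17 without wild-type 31. Adgre1, a surface antigen of mature macrophages, differed by 0.56 (SE 0.74), and Prf1, which encodes perforin, by -1.70 (SE 0.83) while being well above background on 1 of the 5 arrays. Among cholangiocyte genes 13 of 18 lay above 0, and their median was 0.26, from 0.10 without wild-type 34 to 0.51 without wild-type 31.

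Genes of cholesterol synthesis and its control had the highest median of the metabolic lists. Their promoters are shown because this pathway is known to be switched as a unit by SREBP-2 together with NF-Y, which binds the CCAAT box. The 150 bases upstream of 3 members follow (RefSeq, GRCm38.p6, 5′ to 3′ on the gene's strand, with CCAAT on either strand and the sterol regulatory element core TCACCCCAC on either strand in capitals), for Hmgcs1 at chr13:119690201-119690350, plus strand, Mvd at chr8:122443423-122443572, minus strand, and Pmvk at chr3:89454391-89454540, plus strand.
Hmgcs1: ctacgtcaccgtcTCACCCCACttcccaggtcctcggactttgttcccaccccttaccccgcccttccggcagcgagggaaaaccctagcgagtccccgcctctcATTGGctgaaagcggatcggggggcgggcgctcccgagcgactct
Mvd: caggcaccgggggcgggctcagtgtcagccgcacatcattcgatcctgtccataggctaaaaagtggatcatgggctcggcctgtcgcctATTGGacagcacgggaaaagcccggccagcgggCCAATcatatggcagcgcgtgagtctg
Pmvk: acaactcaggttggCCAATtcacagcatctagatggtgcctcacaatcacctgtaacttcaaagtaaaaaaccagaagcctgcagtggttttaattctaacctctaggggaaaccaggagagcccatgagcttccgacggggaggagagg
In the 250 bases upstream of the start, CCAAT on either strand was present in 16 of the 17 list members with a promoter entry (94.1%), the exception being Acat2, against 37.49% of 27025 genes. The core TCACCCCAC was found in 1 of 17, Hmgcs1, against 0.56% of genes, and the E-box CACGTG in 4 of 17 against 6.86%. These are letter matches in 1 window and not sites of binding, and genes can have more than 1 promoter entry. A gene was counted when any of its entries matched. Each sequence shown is the first entry of its gene with a CCAAT match, so its match was part of the choice.

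Of 25 cholesterol genes tested 23 were above 0, none had an unadjusted p under 0.05, and the median was 0.50. In 6 of them all hemizygous arrays lay above both wild types, as in 8.57% of all genes, and in 1, Ggps1, which makes geranylgeranyl diphosphate, all lay below, as in 9.3% of all genes (-0.33, SE 0.28). Mvd, the decarboxylase that makes isopentenyl diphosphate, read 2.13 and 1.58 in wild type and 3.76, 2.97 and 2.09 in hemizygous liver (difference 1.09, SE 0.69). Pmvk, a mevalonate pathway kinase, read 5.32 and 4.70 against 6.14, 5.56 and 5.66 (0.77, SE 0.50), and Srebf2, the gene of SREBP-2 itself, differed by 0.88 (SE 0.54). Hmgcs1, an early enzyme of the pathway, read 6.80 and 5.995 against 7.66, 6.62 and 6.42 (0.50, SE 0.52). On slide 1 alone the differences were 0.24 for Mvd, 0.65 for Pmvk, 0.28 for Srebf2 and 0.02 for Hmgcs1.

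Levels of the pathway overlapped between genotypes. The mean level of the 25 genes was 4.20 and 3.82 in wild-type 31 and 34 and 4.77, 4.47 and 4.18 in hemizygous 27, 28 and 30, and hemizygous 30 lay just below wild-type 31. In knockout liver the same mean was 3.60, 4.80 and 3.40 for animals 137, 64 and 69, a wider range than that of the hemizygous mice. With slide as a block the median was 0.13, and for hemizygous 30 minus wild-type 31 it was 0.01, with 13 of 25 genes above 0. Over all genes tested these medians were 0.07 and 0.09, and 15203 of 25317 were above 0 for that pair of arrays. The part of slide and of the lower wild-type 34 in the difference was not tested.

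Sex-biased liver genes had medians far from 0, and these went with wild-type 34. Of 26 female-biased genes 25 were above 0 with a median of 0.98. Cyp2b9, a female-biased cytochrome P450, read 6.26 in wild-type 31 and 2.54 in wild-type 34, against 6.13, 6.41 and 6.21 in hemizygous liver, and Cux2, the female-specific repressor, read 0.05 and -7.31 against -0.05, -0.59 and -0.57. Against wild-type 31 alone the median of the list was -0.02, and with Xist as a covariate 0.06. Of 23 male-biased genes 19 were below 0 with a median of -0.67, which was -0.11 with Xist as a covariate. Selenbp2 of that list read 8.21 and 9.45 in wild type and 7.45, 7.45 and 8.05 in hemizygous liver (-1.18, SE 0.56).

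The other lists lay closer to 0. Oxidative phosphorylation had 26 of 29 genes below 0 with a median of -0.14, and 23 of the 29 intervals stayed within 1 log2 unit. With slide as a block 24 of 29 were above 0 and the median was 0.12. Over all genes tested 14602 of 25317 were above 0 in that model, with a median of 0.07. Cox4i1, a subunit of cytochrome c oxidase, read 7.23 and 7.10 in wild type and 6.44, 6.77 and 7.15 in hemizygous liver (-0.38, SE 0.31). Of 14 genes of mitochondrial dynamics, a process in which Mcl-1 also takes part, 13 were below 0 with a median of -0.11 and 12 intervals within 1 log2 unit. With slide as a block 7 of the 14 were above 0 and the median was -0.02, and without wild-type 34 the count was 7 again and the median also -0.02. Mitosis genes had 16 of 28 above 0 and a median of 0.02, but the median was -0.54 with slide as a block, with 6 of 28 above 0, and 0.33 without hemizygous 30. Of p53 targets 12 of 18 were above 0 (median 0.07, but -0.04 without hemizygous 30 and 0.18 with slide as a block). The unfolded protein response and integrated stress response had 19 of 25 below 0, with a median of -0.24 that was -0.09 with slide as a block.

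Immediate early genes, which follow stress and handling within minutes as well as signalling, had a median of 0.30 with 12 of 18 above 0. Fos read -6.35 and -5.25 in wild type, not well above background, and -4.22, -1.99 and -4.28 in hemizygous liver, at least 3.40-fold higher. Dusp1, a phosphatase of MAP kinases, read 1.36 and 1.40 against 1.64, 2.86 and 3.32 (1.23, SE 0.76), without overlap and with a wide spread among the hemizygous mice. Junb of the same list lay at -0.50 (SE 0.67), and the differences of the list ran from -1.235 to 2.298. With slide as a block the median of the list was 0.02.

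**Figure D5:**
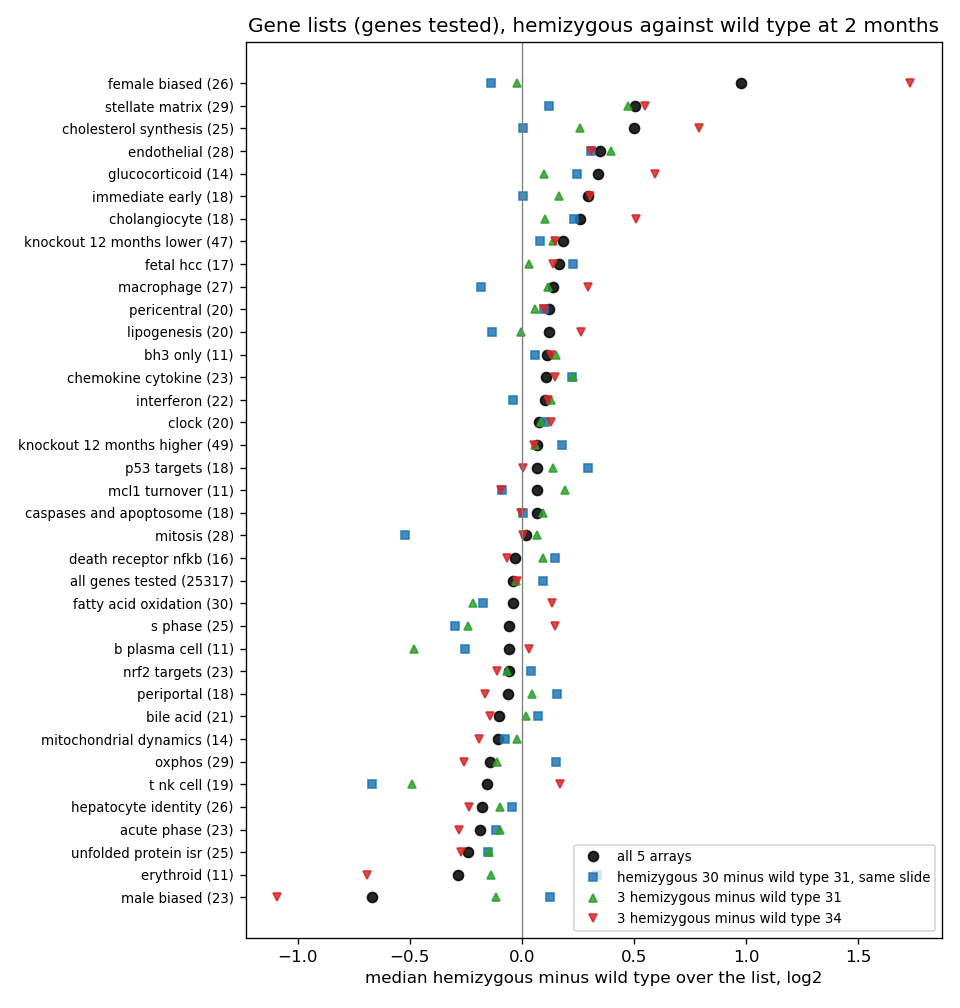
Median difference hemizygous minus wild type (log2) of each list with 11 or more genes tested, over all 5 arrays (black), for hemizygous 30 minus wild-type 31 (blue), and for the 3 hemizygous arrays against wild-type 31 (green) or wild-type 34 (red) alone. Female-biased genes run from -0.14 to 1.73 by the choice of arrays, whereas endothelial markers stay between 0.31 and 0.395.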

How the data were processed

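Labelled RNA (Cy3, 1 colour) from whole liver was hybridised to Agilent arrays. The deposited intensity values come from Agilent Feature Extraction 10.5.1.1, whose processed signal is background-corrected within the array, per the file headers. The authors' deposited series matrix holds log2 values and was used as an alternative only. The submitters' processing notes name limma without a version.

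Spots of a probe were averaged without marked spots (68 to 257 per array), log2 was taken and each array's 75th percentile subtracted. Probes were named through RefSeq accessions (GRCm38.p6; 24375 of 41174, 59.2%), and the brightest probe stood for a gene. Genes well above background on 2 of the 18 non-tumor arrays and 1 of the 5 compared were tested (25317) with limma 3.58.1 (R 4.3.3; 6 groups, 12 residual degrees of freedom, two-sided, Benjamini-Hochberg, threshold 0.05). The model was tested on simulated data. The number of arrays limits the precision, and p-values measure the spread between single animals.

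The comparison and the 40 gene lists were chosen with earlier results of these data known. Named were Mcl1, its 5 neighbours each side, the 10 non-overlapping genes each way with the smallest p and a symbol, well above background in the higher group, up to 4 members with the smallest p per list plus textbook members, sex-linked genes, and genes past the threshold at 12 months or in an alternative. The normexp alternative used the median signal, since the planned mean signal is not among the columns of these files. Other alternatives were quantile or median scaling, the series matrix, other filters, averaging the probes of a gene, robust variance estimation with a trend, and slide, scan day or Xist in the model, other sets of arrays, and leaving out each array. Values of some single genes of the cholesterol list are not reported here.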

Additional observations from a re-analysis of the deposited data

How the results depend on the processing

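No paired analysis was possible because hemizygous and wild-type mice are different animals that share no number. Mcl1 kept its sign and its side of the adjusted threshold under all 32 other settings tried: it lay between -0.92 and -0.68 over 14 settings, with -0.68 when slide was a block, and between -1.16 and -0.68 when 1 of the 18 arrays was left out, the lower value without wild-type 31 and the other without wild-type 34. Hemizygous 30 minus wild-type 31, a comparison chosen after seeing the data, gave -0.44. The count of genes higher in hemizygous liver, 0 in the main model, was 14 with slide as a block. The count of lower genes, also 0, was 19 with slide as a block, 4 with the 8 arrays of 2 months, 2 with quantile normalisation of the processed signal, and 1 without a filter (Btg4). It ranged from 0 to 2 when an array was left out: 2 without wild-type 31, 1 without wild-type 34, 1 without hemizygous 30 (Cldn34b3) and 1 without knockout animal 702; a lone wild-type array was assumed to vary like the other groups. With slide as a block only hemizygous 30 is set against wild type on the same slide, and several of those calls are values of that 1 array: Cep295 read 5.55 there and between -3.54 and -3.03 on the other 4, and Pnn 7.37 against 0.63 to 1.28. The same holds for Olfr686, at -7.82 there and -4.03 to -2.92 elsewhere. The 5 arrays alone gave 1099 genes at an unadjusted p under 0.05 and 0 past the limma threshold. The median of the genes lower in older knockout liver was 0.059 with slide as a block. Of the other named genes only Gadd45gip1 turned its sign, to 0.16 with the mean of all probes; the cause was not tested. Of 1269 list medians under the alternatives, 72 moved by more than the spread between animals. Probes near background limit the dim genes.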

Other observations

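Liver zonation and clock genes, which follow position in the lobule and hour of the day, were not described above. Of 20 pericentral genes 15 were above 0 (median 0.12, but 0.01 with Xist as a covariate) and of 18 periportal genes 5 (median -0.06, but 0.04 without wild-type 34 and 0.09 without hemizygous 27). Of 20 clock genes 15 were above 0 with a median of 0.08. Among 23 acute-phase genes 15 were below 0 (median -0.19), and among 24 listed bile acid genes 21 were tested and 13 were below 0 (median -0.10). The sign of both medians depended on the scaling: after quantile scaling with normexp, after quantile scaling of processed signals, and in the series matrix they were 0.02, 0.06 and 0.02 for acute-phase genes and 0.115, 0.05 and 0.11 for bile acid genes. No member of these 5 lists passed the adjusted limma threshold or had an unadjusted p under 0.05.

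The remaining lists are given by their counts and medians, beside 45.3% above 0 and a median of -0.04 over all genes. With slide as a block 14602 of 25317 genes were above 0 (median 0.07). For hemizygous 30 minus wild-type 31 the count was 15203 (median 0.09). Lipogenesis had 14 of 20 genes above 0 (median 0.12, but 0.00 with slide as a block), and NRF2 targets 8 of 23 (-0.06, but 0.035 with normexp and quantile normalisation). Fatty acid oxidation had 14 of 30 above 0 (-0.04) and S-phase genes 11 of 25 (-0.06), and both turned with the wild-type animal, from -0.22 and -0.24 without wild-type 34 to 0.13 and 0.15 without wild-type 31. Interferon genes had 15 of 22 above 0 (0.10), but 9 of 22 with slide as a block (-0.05). Chemokines and cytokines had 13 of 23 above 0 (0.11, but 0.23 without wild-type 34), and death receptor and NF-kB genes 6 of 16 (-0.03, but 0.095 without wild-type 34). Glucocorticoid targets had 10 of 14 above 0 (0.34), with a median of 0.66 with slide as a block, 0.10 without wild-type 34 and 0.02 with Xist as a covariate. Fetal or tumor-associated liver genes had 10 of 17 above 0 (0.165, but 0.03 without wild-type 34). Among blood cell lists, erythroid genes had 3 of 11 above 0 (-0.29), but 8 of 11 for hemizygous 30 minus wild-type 31 (0.33). B and plasma cell genes had 4 of 11 above 0 (-0.06, but -0.48 without wild-type 34). Neutrophil genes had 4 of 8 above 0 (0.02), but 6 of 8 with slide as a block (1.19) and also without wild-type 31 (0.98).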
